A study of Homo sapiens with 44 samples.

Results

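Chromatin accessibility after interferon alpha (IFNα) was compared with that of unstimulated cells in Ccd18-Co, a fibroblast line grown from human colon. The comparison took the 4 libraries of cells given IFNα at 10 ng/ml and the 4 libraries of unstimulated cells, which are 8 of the 44 bulk ATAC-seq libraries of the study, and all 407383 peaks that the deposited table lists for every library. ATAC-seq uses a transposase that cuts open DNA and tags it for sequencing, so that coverage over a peak reports how accessible that stretch was. Per the study's methods, cells were starved of serum for 72 h and then stimulated for 24 h in serum-free medium. The methods do not describe the unstimulated controls separately, and these are taken to have been starved as well. All libraries came from 1 cell line, the subtype of IFNα was not given in the sources used here, and nothing states that the replicates were separate cultures. P-values therefore measure the spread between these libraries, which may be technical. The nearest of the other 9 cytokine groups, interferon gamma (IFNγ, 10 ng/ml, 4 libraries), was used for a direct comparison.

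Type I interferons such as IFNα bind the receptor chains IFNAR1 and IFNAR2, whose kinases JAK1 and TYK2 phosphorylate STAT proteins. With IRF9 these form a complex that binds the interferon-stimulated response element (ISRE) and switches on antiviral genes. IFNγ uses another receptor and mainly STAT dimers, which bind the GAS element and, through IRF1 and CIITA, act on antigen presentation genes.

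Stretches around ISRE strings are shown first, because they are the DNA at which this pathway is known to act. They come from raised promoters that hold the string with its middle upstream of the start. The string searched was GAAANNGAAA, on both strands, where N is any base. It occurred in 9.11% of all tested peaks. Of 42 promoter peaks of listed genes that rose with IFNα, 26 held the string. In 24 its middle lay upstream of the gene's annotated start, at 2 to 216 bases (median 87) and within 200 bases in 22. At IFITM1 (2 bases) and LGALS9 (4 bases) the string itself reaches the start, so it does not lie wholly upstream. The string was not confined to promoters that rose. Among the 42 antiviral effector genes described below it was in 18 of the 28 raised promoters (64.3%) and 9 of the 14 not raised (64.3%), and in the class I list in 1 of 2 raised and 11 of 16 not raised. Over all promoter peaks of protein-coding genes it was in 55 of the 218 raised (25.2%) and 676 of the 14832 not raised (4.56%). The 10 with the largest change in accessibility follow, read 5′ to 3′ from hg38 on the strand that carries the string, with the string in capitals. A match is a description of the letters, not a bound site or a cause.
BST2, chr19:17405735-17405764, minus strand: ctgggaaactGAAACTGAAAacctaattaa
RSAD2, chr2:6877622-6877651, minus strand: ttccacatgtGAAACTGAAAgttgaaacag
CXCL10, chr4:76023689-76023738, minus strand: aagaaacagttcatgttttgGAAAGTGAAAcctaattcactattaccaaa
IFI27, chr14:94110621-94110670, plus strand: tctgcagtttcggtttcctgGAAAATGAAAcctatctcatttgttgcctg
IFITM1, chr11:314024-314053, plus strand: acacttctgaGAAACTGAAAcgacagggga
ISG15, chr1:1013370-1013419, plus strand: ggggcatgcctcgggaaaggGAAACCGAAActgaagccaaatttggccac
HERC5, chr4:88457025-88457074, minus strand: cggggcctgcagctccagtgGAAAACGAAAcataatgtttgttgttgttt
IFIT3, chr10:89327855-89327904, minus strand: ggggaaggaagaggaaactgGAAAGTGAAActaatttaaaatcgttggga
IFIT1, chr10:89392510-89392539, minus strand: gaaacctaggGAAACCGAAAggggaaagtg
IFI44, chr1:78649761-78649790, minus strand: tcagagaaagGAAACTGAAActcagtgtgc

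Coverage summed over all peaks was 328.6 to 524.4 Mb in the unstimulated libraries and 325.2 to 390.5 Mb in 3 of the IFNα libraries, while IFNα replicate 2 held 823.1 Mb. This is coverage inside the listed peaks and not the depth of the libraries. Peaks that the table classes as promoters took 20.0 to 20.5% of coverage in the unstimulated libraries and 18.9 to 21.9% in the IFNα libraries, with IFNα replicate 3 the lowest (difference in means 0.432 percentage points, two-sided exact permutation p = 0.629, smallest possible 0.0286). Each level below is coverage per Mb of the library's total after a correction for composition, and 3 reads correspond to 0.274 to 0.728 coverage per Mb, depending on the library. The label was checked against promoter peaks of marker genes. The summed level of 12 fibroblast markers was 169 to 176 in unstimulated and 165 to 187 in IFNα libraries. That of 8 endothelial markers was 5.80 to 9.35 and 5.00 to 7.81. Of 8 epithelial markers 3 had a promoter peak (0.533 to 3.01 and 1.80 to 4.01), and of 8 leukocyte markers 4 had one (5.93 to 7.73 and 3.93 to 8.12), with no promoter peak at PTPRC, SPI1 or CD3E, among others. In bulk libraries a change in every cell and a change in part of the cells cannot be told apart.

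IFNα raised accessibility at 2089 of 407176 tested peaks (0.513%) and lowered it at 1359 (0.334%) at an adjusted p-value under 0.05 (limma, Benjamini-Hochberg). With libraries scaled by their totals alone the counts were 1590 and 1628, so that the raised share of the calls was 60.6% as reported and 49.4% under that scaling. The 10714 peaks at which all IFNα libraries lay above all unstimulated libraries were 2.63% of those tested, and the 9813 with all IFNα libraries below were 2.41%. Among raised peaks 1821 were separated in this way, and among lowered peaks 1170. The median raised peak gained 0.91 on the log2(coverage per Mb + 0.5) scale, and 870 peaks gained over 1 and 63 over 2. The median lowered peak changed by -1.03, and only 2 changed by under -2. Median levels went from 5.41 to 10.7 in the raised set and from 6.78 to 3.02 in the lowered set, against a median change of 0.01 over all tested peaks. Raised peaks with an unstimulated mean under 1 numbered 276 (13.2%). Their fitted changes understate the change in level because 0.5 is added before the log. Leaving out a library moved the counts. Without IFNα replicate 2 they were 1349 raised and 1154 lowered, without IFNα replicate 1 1318 and 998, and without unstimulated replicate 3 1377 and 850. The 20 peaks named by size below were chosen among called peaks with separate groups, so the separation of IFNα from unstimulated libraries there is given by the choice. All 20 kept their calls without any 1 library and under every other alternative run.

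**Figure D1:**
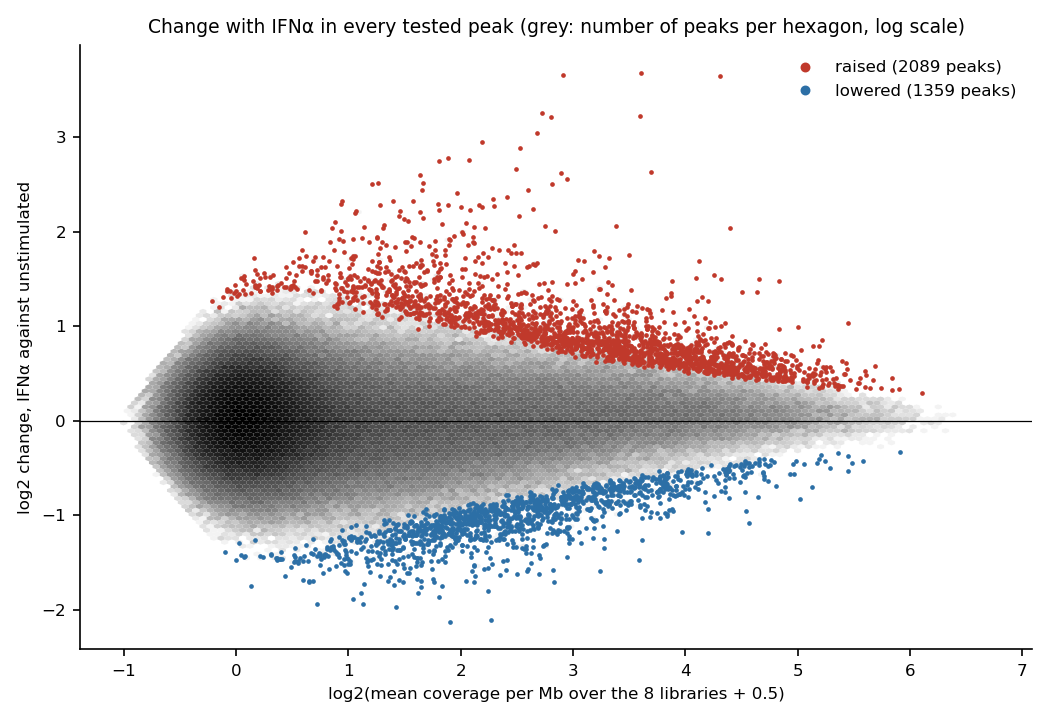
Log2 change with IFNα against unstimulated (vertical axis) by log2 of mean coverage per Mb + 0.5 over the 8 libraries (horizontal axis). Grey shading gives the number of tested peaks per hexagon, red points are the 2089 raised and blue points the 1359 lowered peaks. Raised peaks reach 3.68, while lowered peaks end at -2.13.

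Promoters of protein-coding genes were raised more often than lowered. Of 15050 genes' promoter peaks, defined as the tested peak nearest to the gene's start within 1000 bases, 218 rose (1.45%) and 18 fell (0.12%), with a median change of 0.07. Members of the lists below are read against these shares. Lists and members were chosen with earlier results of these data known, so their counts are a description and not an independent test. By the table's own classes, promoters made up 12.7% of raised peaks, 2.65% of lowered peaks and 7.15% of all tested peaks. Among tested peaks whose mean level was 1 per Mb or more, promoters were also 12.7%, the share found in the raised set. Intronic and distal peaks made up 48.0 and 31.8% of the raised set and 53.3 and 37.3% of the lowered set.

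The antiviral effectors held the largest changes. BST2 encodes tetherin, a membrane protein that holds budding virions at the cell surface. Its promoter peak (chr19:17405416-17405916) had the largest fitted log2 change of all, though not the largest ratio of mean levels. Its level was 0.707, 0.926, 2.03 and 1.71 in the unstimulated libraries and 21.2, 22.9, 24.3 and 19.9 with IFNα. Every IFNα library lay far above every unstimulated library, and the change was 3.68 ± 0.32 (log2 ± SE, adjusted p = 1.24e-20), or 16.5-fold between mean levels. The promoter of OAS2 (chr12:112978182-112978682), a synthetase of the oligoadenylates that signal viral RNA, held 2.41, 2.52, 2.02 and 2.86 without cytokine. With IFNα it held 37.2, 35.5, 37.9 and 34.7, a change of 3.65 ± 0.25 (adjusted p = 6.54e-30) with little spread in either group. RSAD2 encodes viperin, an enzyme that makes a chain terminator of viral RNA synthesis. The peak 127 bases from its start (chr2:6877400-6877900), which the table assigns to the neighbouring gene CMPK2, went from 1.76, 2.51, 1.77 and 1.35 to 22.7, 25.9, 16.1 and 21.0 (change 3.22 ± 0.31, adjusted p = 2.4e-17). IFNα replicate 3 had the lowest of the 4 treated values there, still far above every unstimulated library.

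**Figure D2:**
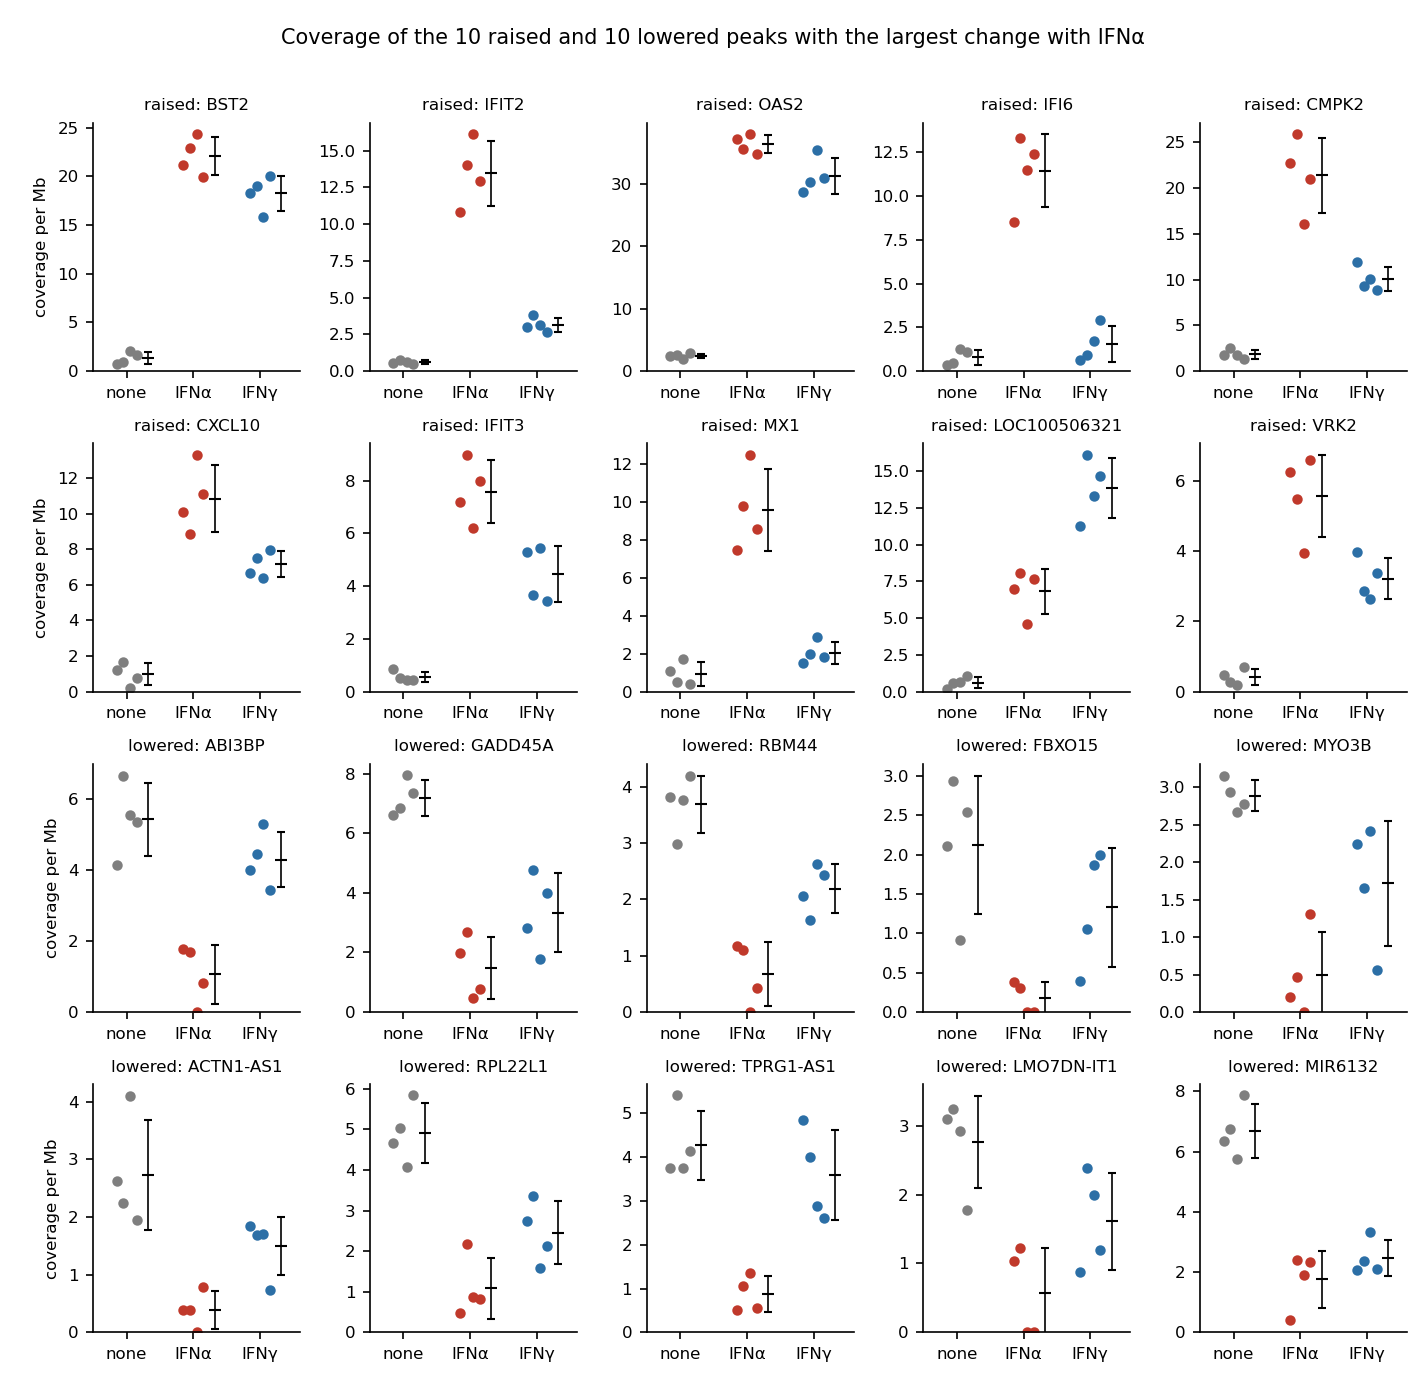
Level in coverage per Mb (vertical axes, each from 0) of every library at the 10 raised and 10 lowered peaks with the largest change, in unstimulated (none), IFNα and IFNγ cells. Points are libraries and bars the mean ± SD (n = 4). Peaks were chosen among those with IFNα libraries all above (raised) or all below (lowered) the unstimulated ones, so that separation is given by the choice. At the IFI6 and MX1 peaks IFNγ libraries stay near the unstimulated ones.

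Of 42 antiviral effector genes, all with a promoter peak (41 distinct peaks, since PARP9 and DTX3L share 1), 28 rose, none fell and 14 did not pass the test, against 1.45% raised over all promoters. The median change was 0.92, and 31 of the 42 had IFNα libraries above all unstimulated ones, as did 772 of all 15050 promoter peaks (5.13%). The summed level of the list was 411 to 462 in the unstimulated libraries and 791 to 872 with IFNα, so the groups stood well apart. As with the other lists, its members were chosen with earlier results of these data known. MX1, a dynamin-like GTPase that blocks influenza and other viruses, had 1.97, 3.53, 3.94 and 3.13 at its promoter before and 22.6, 20.5, 19.2 and 24.4 after IFNα (change 2.63 ± 0.24, adjusted p = 2.4e-19). IFI27, OAS1 and OASL started from mean levels of 1.63, 1.75 and 1.73 and reached 12.2, 12.7 and 11.3. ISG15, a ubiquitin-like modifier, was already open at 13.8, 15.1, 14.5 and 15.1 and went to 40.0, 39.3, 43.3 and 43.7 (change 1.48 ± 0.14, adjusted p = 2.4e-17). HERC5, its ligase, went from a mean of 13.6 to 35.1 (1.36 ± 0.16). The promoter of IFI6, a mitochondrial and endoplasmic reticulum membrane protein, was the most open of the list without cytokine and gained least among these examples, from 32.5 to 50.7 (0.63 ± 0.10). Paralogs of the IFITM and OAS families lie side by side and resemble each other, so their peaks may share reads.

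Not every antiviral promoter moved. The promoter peak of IFIT2, which encodes a protein that binds viral RNA, held 9.32, 12.7, 12.6 and 9.79 before and 13.7, 12.9, 14.3 and 12.2 after IFNα, with overlapping groups (0.26 ± 0.17, adjusted p = 0.702). EIF2AK2, the RNA-activated kinase PKR, had a change of 0.39 (adjusted p = 0.39), and ADAR, an RNA editing enzyme, 0.29 (0.606). The shared PARP9 and DTX3L promoter had IFNα libraries above all unstimulated ones but missed the threshold (adjusted p = 0.0652). IFITM2, ISG20, ZC3HAV1 and IFI44 passed, and each lost its call without at least 1 library (adjusted p up to 0.0718, 0.227, 0.166 and 0.207). Of all 43 list promoters called in either direction, 12 lost the call without at least 1 library and 16 under at least 1 alternative. IFITM3, OAS3 and IFI6 lost it only where the spread was not tied to the mean level (0.184, 0.0501 and 0.112).

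**Figure D3:**
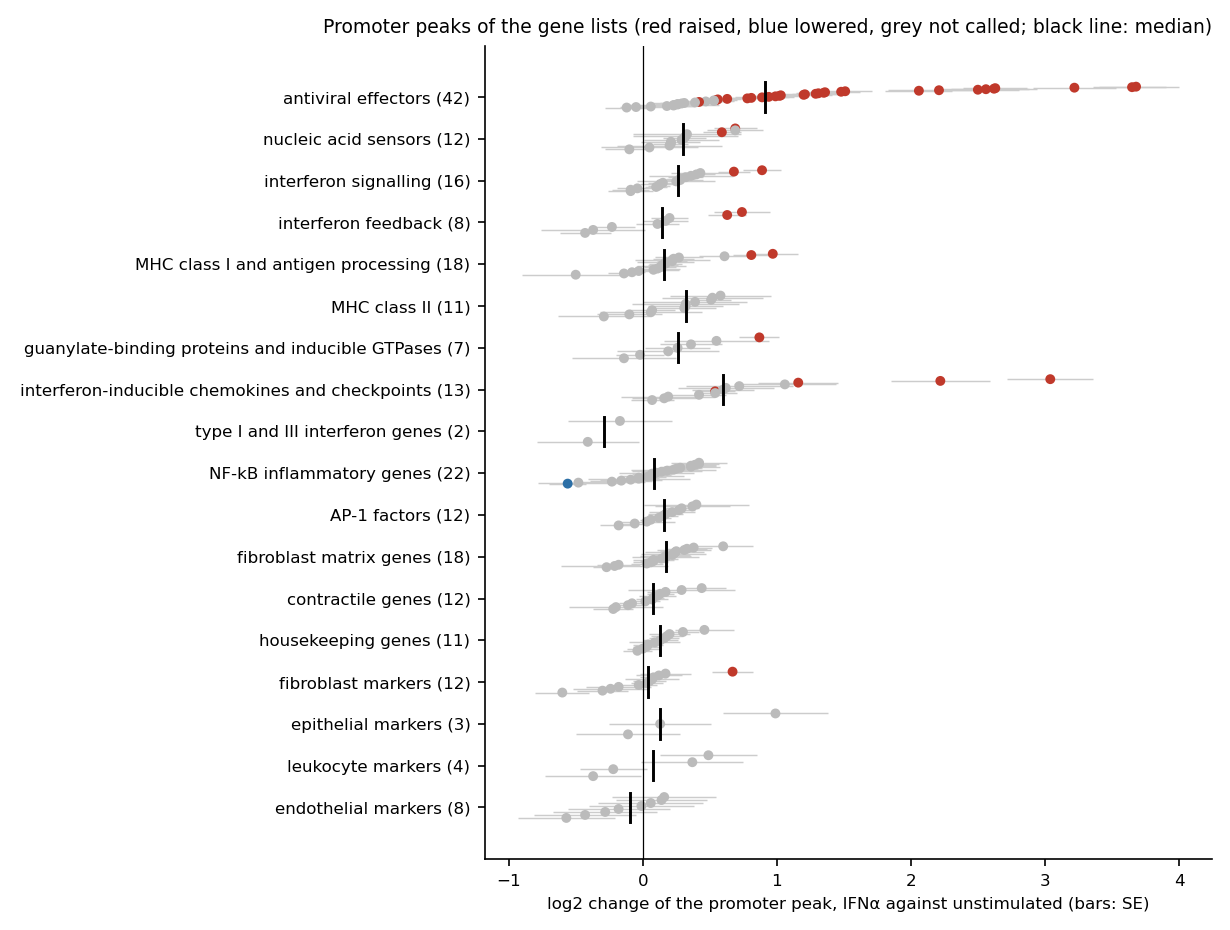
Log2 change with IFNα of the promoter peak of each listed gene (points, with SE as bars), 1 row per list with the number of promoter peaks in brackets. Red points were raised, blue lowered and grey not called, and black ticks are list medians. The antiviral median lies at 0.92, and those of the matrix, contractile and housekeeping lists lie between 0.08 and 0.17.

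The receptor and its kinases showed no called change at their promoters. IFNAR1 had levels of 18.1, 18.0, 14.4 and 17.0 before and 16.2, 19.7, 12.6 and 17.7 after IFNα (-0.04 ± 0.15), IFNAR2 0.43 ± 0.22 (adjusted p = 0.547), JAK1 0.28 and TYK2 0.15. Of 16 interferon signalling genes 2 rose and none fell, with a median of 0.26. IRF9, the DNA-binding part of the complex at the ISRE, was among those raised and went from 13.3, 13.8, 16.3 and 14.1 to 28.5, 30.4, 21.9 and 28.2 (0.89 ± 0.14, adjusted p = 5.77e-06), with separate groups. STAT2, its partner, had one of the most open promoters of the list, with means of 64.2 and 69.8 and a change of 0.12 (adjusted p = 0.689). IRF7, which amplifies interferon production, had 0.32 (adjusted p = 0.359), and IRF1 0.28 (0.309).

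Of 12 sensors of foreign nucleic acid 2 rose and none fell (median 0.30). The promoter of RIGI, the receptor for viral RNA ends that the table lists under its older symbol DDX58, went from a mean of 14.1 to 23.1 (0.69 ± 0.16, adjusted p = 0.00808, and 0.0561 without IFNα replicate 4). DHX58, its regulator, went from 18.3 to 27.8 (0.59 ± 0.14, adjusted p = 0.00856, and up to 0.0715 without unstimulated replicate 1 or IFNα replicate 2). IFIH1, the sensor MDA5, had separate groups but missed the threshold, with 6.61, 4.83, 5.90 and 5.34 before and 10.3, 11.3, 7.90 and 8.38 after IFNα (adjusted p = 0.0942). Of 8 feedback genes 2 rose (median 0.14). SOCS1, which inhibits the JAK kinases, had 0.63 ± 0.14 (adjusted p = 0.00438, and up to 0.100 without unstimulated replicate 4 or IFNα replicate 1). USP18, which removes ISG15 and blocks IFNAR2, had 0.74 ± 0.21 (adjusted p = 0.0494), a call lost when any of 7 of the 8 libraries was left out. Of 8 type I and III interferon genes 2 had a promoter peak, and neither was called.

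Of 18 promoter peaks of MHC class I and antigen processing genes 2 rose, HLA-B (mean 14.2 to 25.5, change 0.81 ± 0.14) and HLA-F (7.96 to 16.3, 0.97 ± 0.19), with a list median of 0.16. B2M, the light chain of class I, was at 30.4 and 29.8. Any peak that the table names for the gene was raised for 8 of these 18 genes, against 7 of 18 fibroblast matrix genes and 7.78% of 14992 protein-coding genes, a count that grows with the number of peaks named for a gene. HLA genes are highly similar and variable, which makes their coverage uncertain. None of 11 MHC class II promoters was called (median 0.32). HLA-DMA, a chaperone of peptide loading, was the one with separate groups, at 16.5, 11.9, 13.5 and 11.0 and then 16.6, 21.7, 18.2 and 19.1 (0.51 ± 0.15, adjusted p = 0.0621), and it was called under 3 of 20 alternatives. HLA-DPA1 was also open, with means of 11.4 and 12.0. HLA-DRA stayed low, at 0.788, 1.13, 1.88 and 1.41 and then 1.30, 1.18, 0.864 and 0.553. CD74, the invariant chain, was at 0.406, 0.349, 1.14 and 0.797 and then 0.882, 1.33, 1.66 and 0.994, which is close to the level of 3 reads. Both lists share the IFNα libraries with the following test.

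Tested directly, 1210 peaks were higher with IFNα than with IFNγ (0.297%) and 3573 were lower (0.878%). Among promoter peaks of protein-coding genes 50 were higher (0.332%) and 58 lower (0.385%). Of the 11 class II promoters 8 were lower with IFNα, with a median difference of -1.77. HLA-DRA averaged 0.974 with IFNα and 11.9 with IFNγ (difference -3.09, adjusted p = 1.24e-12), CD74 1.22 and 16.5 (-3.30, adjusted p = 4.06e-12) and CIITA, the class II activator, 0.832 and 4.57 (-1.95, adjusted p = 0.000461). From the class I list TAP1, PSMB8, PSMB9 and NLRC5, a peptide transporter, 2 immunoproteasome subunits and the class I activator, were also lower with IFNα (-0.39, -0.85, -0.95 and -0.59). IDO1, which degrades tryptophan, averaged 1.39 with IFNα and 11.3 with IFNγ (-2.67), and AIM2, a sensor of cytosolic DNA, 0.917 and 5.35 (-2.14). Antiviral promoters mostly gave no call in this test. MX1 (difference 1.25, adjusted p = 0.000156) and HERC5 (0.66, adjusted p = 0.00658) were higher with IFNα and APOBEC3G was lower (-0.83, adjusted p = 0.0057), with the other 39 genes not called.

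Among guanylate-binding proteins and inducible GTPases 1 of 7 promoters rose, GBP1, from 16.1, 10.3, 13.6 and 11.2 to 26.1, 25.8, 21.5 and 21.1 (0.87 ± 0.15, adjusted p = 2.15e-05). GBP2 had -0.02, with a mean of 8.03 after IFNα and 19.0 after IFNγ, and GBP4 and GBP5 were likewise lower with IFNα than with IFNγ (-1.64 and -2.73). The GBP genes form a cluster of close copies, so their values are uncertain. Of 13 chemokine and checkpoint promoters 4 rose (median 0.60). CXCL10, which attracts T cells through CXCR3, went from 1.23, 1.68, 0.228 and 0.764 to 10.1, 8.85, 13.3 and 11.1 (3.04 ± 0.32, adjusted p = 1.42e-14), and all treated libraries lay above 8. Its neighbour CXCL11 went from a mean of 0.709 to 5.28 (2.22 ± 0.37, adjusted p = 1.51e-05), with treated libraries from 2.41 to 7.91. LGALS9, which encodes galectin-9, had 1.16 ± 0.30 (adjusted p = 0.0222) and CD274, which encodes PD-L1, 0.54 ± 0.15 (adjusted p = 0.0486). The call at LGALS9 was lost when any of 6 libraries was left out and that at CD274 when any of 7 was, with adjusted p up to 0.115 and 0.184.

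Lists outside the interferon pathway held few calls. None of 18 matrix promoters (median 0.17), 12 contractile promoters (0.08), 12 AP-1 factor promoters (0.16) or 11 housekeeping promoters (0.13) was called. COL1A1, the main fibrillar collagen chain, was at 24.1 and 24.6, and ACTA2, smooth muscle actin, at 19.5 and 21.5. Compared with IFNγ, however, ACTA2, TAGLN and CNN1, all of the contractile apparatus, were higher with IFNα (0.70, 0.28 and 0.72, adjusted p = 0.000758, 0.049 and 0.00991), and ACTA2 averaged 13.1 with IFNγ. Among 22 NF-κB target genes IL11, a cytokine of the IL-6 family made by activated fibroblasts, was the only called promoter, and it fell from 20.8, 19.6, 19.0 and 15.7 to 14.2, 14.4, 11.2 and 10.6 (-0.56 ± 0.14, adjusted p = 0.0202, and up to 0.137 when a library was left out). Among the fibroblast markers TWIST2, a transcription factor of mesenchymal cells, rose from a mean of 11.0 to 17.6 (0.67 ± 0.15, adjusted p = 0.00414, and 0.0608 without unstimulated replicate 3).

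Raised peaks were bunched around some interferon genes. Joined where neighbours lay within 20000 bases, the raised peaks formed 1780 loci, of which 1592 held 1 peak, 48 held 3 or more and 14 held 5 or more. Among the loci with the most raised peaks, 7 are described here and held 62 of them. A locus runs from its first to its last raised peak, so the tested peaks counted in it are not all those of its genes. They were IFIT2 with IFIT3 (chr10:89295659-89352713, 11 raised of 23 tested), IFI6 (chr1:27658797-27673167, 10 of 14), HES4, ISG15 and AGRN (chr1:995577-1020366, 10 of 24), MX1 (chr21:41393338-41467755, 9 of 15), SCO2, TYMP, ODF3B and KLHDC7B (chr22:50526796-50542080, 9 of 16), IFITM1 to IFITM3 (chr11:307655-321164, 7 of 15) and RIGI (chr9:32502446-32526503, 6 of 14). Of these 62 peaks 12 held the ISRE string and 50 did not, and 21 had an unstimulated mean under 1. The string was in 23.3% of all raised and 9.11% of all tested peaks. An unstimulated mean under 1 was found for 13.2% of all raised and 57.2% of all tested peaks.

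**Figure D4:**
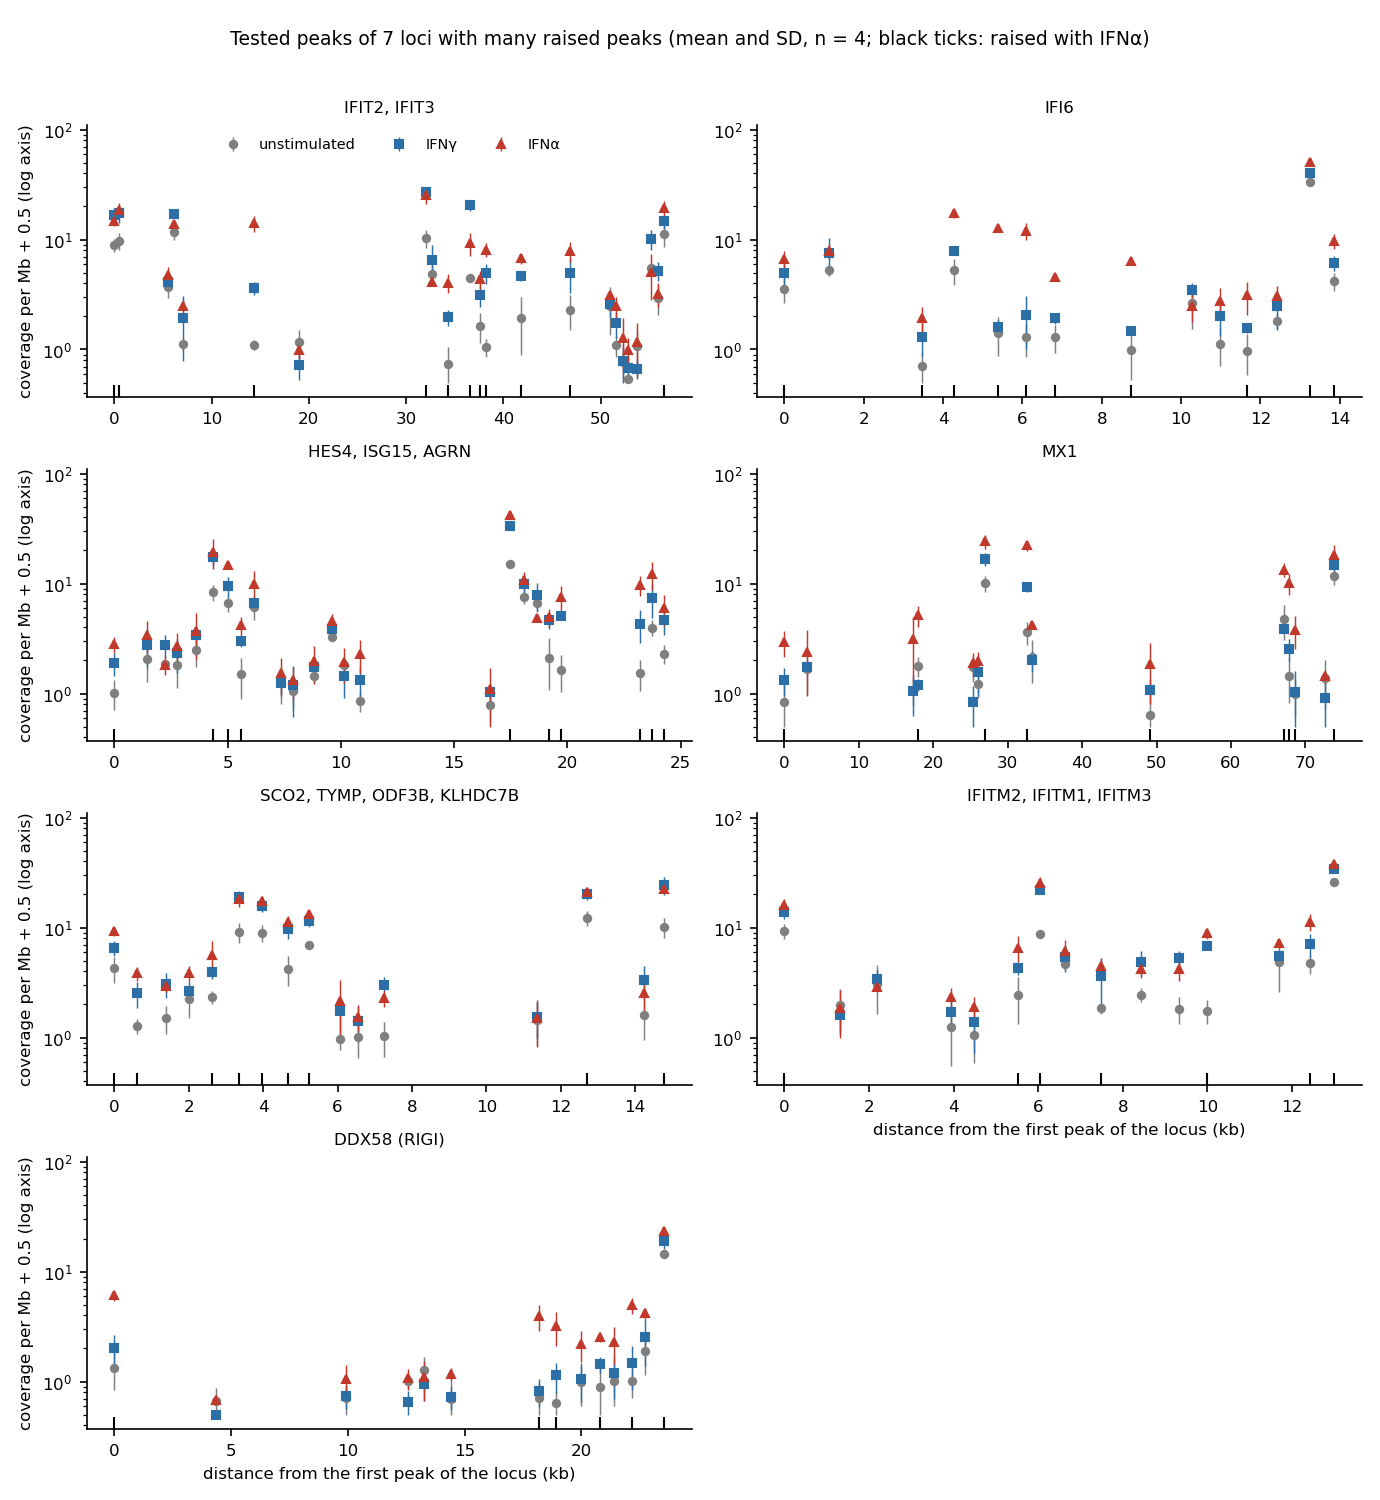
Mean coverage per Mb + 0.5 (log axis, bars are SD, n = 4) of every tested peak in these 7 loci, by distance in kb from the first peak of the locus, in unstimulated, IFNγ and IFNα cells. Black ticks mark raised peaks. Of the raised peaks 4 of 10 at IFI6 and 4 of 6 at RIGI were called higher with IFNα than with IFNγ, and none at IFITM1 to IFITM3. Raised peaks were chosen for a high level with IFNα, which tilts these counts upwards. Over all raised peaks 287 of 2089 were called higher.

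At IFI6 the raised peaks ran through the gene and past its end. Of 10, 2 lay upstream, 2 inside and 6 downstream of the transcript (chr1:27666064-27672192, minus strand), the farthest 7017 bases past its end. At the strongest (chr1:27664892-27665392) the level was 0.360, 0.486, 1.24 and 1.07 without cytokine, 8.50, 13.3, 11.5 and 12.4 with IFNα and 0.627, 0.918, 1.70 and 2.94 with IFNγ. All IFNα libraries lay above all IFNγ libraries, whose range met that of the unstimulated cells (IFNα against unstimulated 3.26 ± 0.39, adjusted p = 4.14e-11; IFNα against IFNγ 2.66, adjusted p = 1.63e-07). The neighbouring peak at chr1:27664189-27664689 averaged 0.917, 12.1 and 1.09 in unstimulated, IFNα and IFNγ cells. Both peaks were chosen for a high level with IFNα, which tilts their differences from IFNγ upwards. Levels at the promoter of the gene were 32.5, 50.7 and 40.0, and the test between the interferons missed the threshold there (adjusted p = 0.0577). In the other 8 cytokine groups the mean of the strongest downstream peak was 0.286 to 0.798.

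RIGI and MX1 had similar spreads of raised peaks. At RIGI 5 of the 6 raised peaks lay inside the gene, up to 23500 bases from its start, and 4 of those 5 were higher with IFNα than with IFNγ. Their means went from 0.138 to 0.825 without cytokine to 2.07 to 5.57 with IFNα, and were 0.317 to 1.52 with IFNγ. At MX1 4 of 9 raised peaks lay past the end of the gene, up to 8293 bases, and 5 of 9 were higher with IFNα than with IFNγ. The protein-coding genes nearest to peaks of this locus were MX2, MX1 and TMPRSS2. The downstream peak at chr21:41461135-41461635 held 1.08, 0.493, 1.74 and 0.424 without cytokine, 7.50, 9.82, 12.5 and 8.58 with IFNα and 1.51, 2.01, 2.88 and 1.83 with IFNγ. Every IFNα value there was above every IFNγ value (difference 1.98, adjusted p = 3.74e-05). None of the 7 raised peaks at IFITM1 to IFITM3 and none of the 9 at TYMP and its neighbours was called higher with IFNα than with IFNγ. All peaks counted here were chosen for a high level with IFNα, which tilts the counts above IFNγ upwards. Over all raised peaks 287 of 2089 were higher and 94 lower with IFNα than with IFNγ. Over all tested peaks the shares were 0.297% higher and 0.878% lower.

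At the IFIT2 and IFIT3 locus the peak that moved most was in neither promoter. The peak at chr10:89310018-89310518, 8222 bases from the start of IFIT2, held 0.560, 0.754, 0.647 and 0.458 without cytokine and 10.8, 14.0, 16.1 and 12.9 with IFNα (3.65 ± 0.38, adjusted p = 3.3e-14), or 22.3-fold between mean levels. With IFNγ it held 2.98, 3.81, 3.12 and 2.64, a level between the other 2 groups (difference 1.93, adjusted p = 0.000453). The choice of this peak for its rise with IFNα tilts that difference upwards. The peak at chr10:89333906-89334406, 6159 bases from the start of IFIT3, went from a mean of 0.551 to 7.58 (2.95 ± 0.35), with 4.46 in IFNγ and 3.97 in TNF cells. At chr10:89332193-89332693 the order was reversed, with 8.84 for IFNα and 20.1 for IFNγ. The remaining named raised peaks were intronic or promoter peaks that the table assigns to genes outside the lists. LOC100506321 (chr14:65081339-65081839) went from 0.610 to 6.81 and was at 13.8 with IFNγ, a difference that missed the threshold (adjusted p = 0.223). The peak assigned to VRK2 (chr2:57908581-57909081), 137975 bases from the start of that gene, went from 0.411 to 5.57.

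Over all raised peaks, 486 of 2089 (23.3%) held the ISRE string, against 6.77% of lowered and 9.11% of all tested peaks (7.84% of those with a mean of at least 1 per Mb). The share rose with the size of the change, from 9.07% of peaks with a change of 0 to 0.5 to 20.3% at 1 to 1.5 and 40.2% of the 184 peaks at 1.5 to 2, and it was 34.9% of the 63 peaks above 2. Strings in raised peaks also lay nearer to the peak centre, with 37.0% of 633 strings within 50 bases of it, against 21.6% of 41201 strings in all tested peaks and 15.2% of 99 in lowered peaks. The AP-1 string TGANTCA occurred in 41.9% of raised, 28.6% of lowered and 25.7% of all tested peaks, the TEAD string GGAATG in 38.8, 28.5 and 28.7% and the GAS string TTCNNNGAA in 17.4, 19.3 and 17.2%. These were searched on both strands, and a peak can hold several of them. Among tested peaks with a mean of at least 1 per Mb the AP-1, TEAD and GAS strings occurred in 29.5, 29.5 and 15.5%. Mean GC content was 49.1% in raised, 44.8% in lowered and 46.7% in all tested peaks. In tested peaks with a mean of at least 1 per Mb it was 49.7%. The part of base composition in these shares was not tested.

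**Figure D5:**
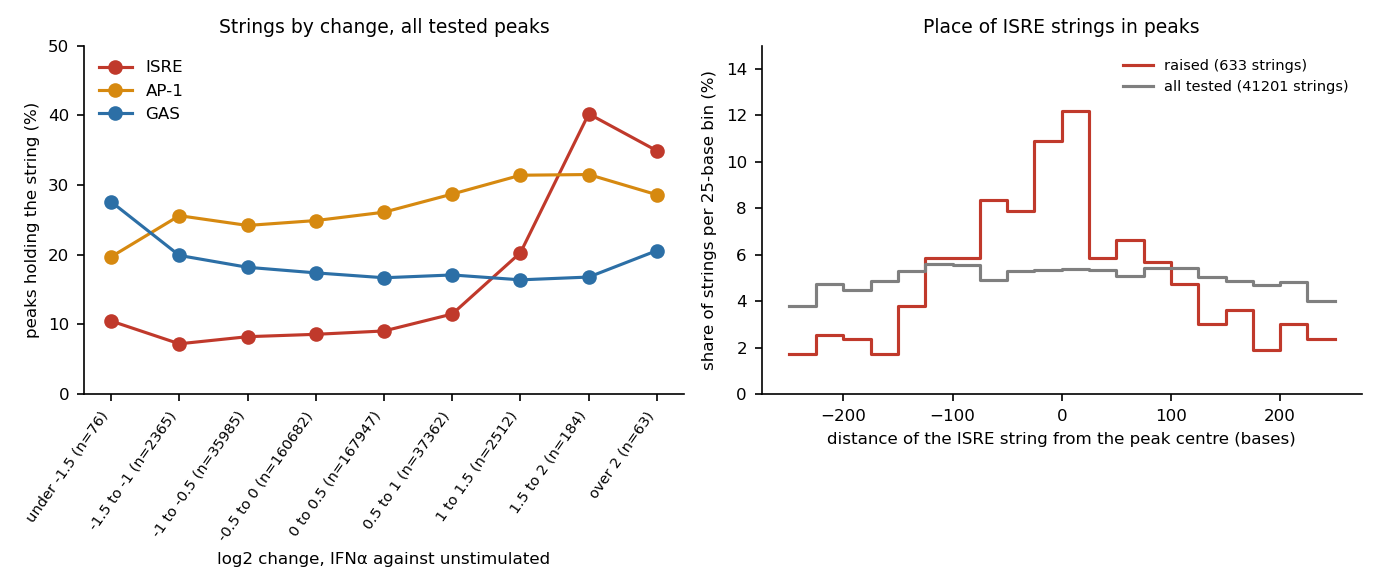
Left, share of tested peaks (%) that hold the ISRE, AP-1 or GAS string, by log2 change with IFNα. Right, distance of ISRE strings from the peak centre in bases, as the share of strings per 25-base bin for raised and for all tested peaks. The ISRE share climbs to 40.2% at changes of 1.5 to 2, and the strings of raised peaks gather near the centre.

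Raised peaks were also set against IFNγ by the strings they hold. They were chosen for a high level with IFNα, so the counts above IFNγ are tilted upwards by the shared IFNα libraries and are given as a description. The 486 raised peaks with the string had a median change of 1.10, and 16 were higher and 66 lower with IFNα than with IFNγ. The 695 with the AP-1 string and no ISRE string had a median of 0.81, with 151 higher and 5 lower. The 908 with neither had 0.91, with 120 higher and 23 lower. Across the 10 cytokines, which share the unstimulated libraries, the median change of the ISRE set was 1.29 with IFNγ, 0.44 with TNF, 0.37 with OSM and 0.12 to 0.26 with the other 6. For the AP-1 set without ISRE it was 0.39 with IFNγ, 0.65 with TNF, 0.44 with TGF-β1, 0.41 with OSM and 0.39 with IL-1β, and 0.07 to 0.20 with IL-6, IL-13, IL-17A and IL-22. Over all tested peaks these medians were between -0.22 and 0.15.

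The 217 peaks in loci with 3 or more raised peaks had a median change of 1.29 and a median level that went from 3.05 to 8.38, while the 1592 raised peaks that stood alone had 0.88 and 5.84 to 10.95. The ISRE string was in 19.4% of the former and 23.9% of the latter. In the bunched loci 175 peaks had no ISRE string, and these had the lowest median level without cytokine (2.06) and a median change of 1.32. Against IFNγ 42 of the 175 were higher with IFNα and 7 lower. Of the 1212 raised peaks without the string that stood alone, 177 were higher and 16 lower. These counts carry the same tilt from the shared IFNα libraries.

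Few lowered peaks lay at promoters, and few passed 2 in size, although the median change was no smaller than that of raised peaks. All 10 lowered peaks named by size were intronic or distal, between 878 and 80950 bases from the nearest annotated start. The largest decrease was at chr3:101081894-101082394, between genes and 88723 bases from the start of ABI3BP, which encodes a matrix protein. Levels were 4.16, 6.67, 5.57 and 5.37 without cytokine, 1.77, 1.69, 0.0 and 0.811 with IFNα and 4.01, 4.46, 5.29 and 3.44 with IFNγ. The IFNα libraries lay below both other groups (-2.13 ± 0.26, adjusted p = 8.14e-11, and against IFNγ -1.82, adjusted p = 4.69e-08). The peak was chosen for its fall with IFNα, which tilts the difference from IFNγ downwards. The peak at chr1:67645969-67646469, assigned to GADD45A, a stress and DNA damage gene, went from 6.61, 6.85, 7.96 and 7.35 to 1.99, 2.70, 0.485 and 0.768 (-2.11 ± 0.28, adjusted p = 4.72e-09). Its mean was 3.34 with IFNγ, 2.51 with TGF-β1, 2.44 with TNF, 1.41 with OSM and 4.22 to 6.59 with the other 5 cytokines, against 7.19 unstimulated. Over all lowered peaks the median change was -0.68 with TNF, -0.53 with IL-1β, -0.47 with TGF-β1, -0.39 with IFNγ and -0.30 with OSM, and -0.21 to -0.12 with the other 4 cytokines, which share the unstimulated libraries. A peak assigned to MIR6132 (chr7:117008940-117009440) went from 6.37, 6.75, 5.75 and 7.87 to 0.397, 2.40, 1.91 and 2.33 (-1.80 ± 0.28).

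The other 7 lowered peaks were assigned to RBM44, FBXO15, MYO3B, ACTN1-AS1, RPL22L1, TPRG1-AS1 and LMO7DN-IT1, with changes from -1.98 to -1.83. Their unstimulated means were 2.13 to 4.90 and their IFNα means 0.173 to 1.08, so that several IFNα values were at or below the level of 3 reads. A fitted change is no bound at such levels. IFNα replicate 3 was listed at 0 in 6 of the 10 lowered peaks, and each was still called without that library. The lowered peaks formed 1285 loci, of which 1227 held 1 peak and 11 held 3 or more. The largest was at IGFBP5, which encodes a binding protein of insulin-like growth factors, with 6 lowered peaks among the 16 tested from its first to its last lowered peak (chr2:216671294-216686623) and changes from -1.15 to -0.72. None of those 6 was called between IFNα and IFNγ.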

How the data were processed

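ATAC-seq libraries of the colon fibroblast line Ccd18-Co were analysed from the table that the authors deposited, which holds summed read coverage (signal, with no scaling for library size) in 407383 peaks of 500 bases for 44 libraries in 11 groups. Per the study's methods, the ENCODE pipeline for ATAC-seq (2.2.3) mapped the reads to hg38, and MACS2 is named in the submitters' processing notes. How the listed peaks were chosen, and the base from which their coordinates count, are not given in the sources used here, so coordinates are printed as deposited. Coverage follows whole reads rather than cut sites. The most frequent low coverage, 75 bases, was taken as 1 read.

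Coverage was divided by the library total in Mb and by a composition factor (trimmed mean of log ratios, 30% of ratios and 5% of means from each end). After adding 0.5, log2 values entered limma 3.58.1 (R 4.3.3) with group as the only term over all 44 libraries and eBayes with a trend, because coverage is not a count and the count model of the study could not be used. Fold changes are on that log2 scale, which understates low peaks. Peaks with a log2 mean of -3 or below (207) were left out, and p-values were adjusted by the Benjamini-Hochberg method over 407176 peaks. The fit was also run on simulated data, and the outcome is not reported here. Shares of coverage were compared by exact permutation (scipy 1.17.1, Python 3.11.15). Floors of 3 reads cover counting error only.

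Peaks named were the 10 raised and 10 lowered with the largest change among those called, with a mean of at least 1 per Mb and with separate groups, 1 per gene name. The promoter peaks of 249 list entries in 18 lists and the 8 loci with the most raised peaks, joined over gaps of up to 20000 bases, were also named. Some of these, 1 of the 8 loci included, are not reported here. Members and lists were chosen with earlier results of these data known. Start sites came from GENCODE 44, and 81.8% of the peaks that the table classes as promoters lay within 1000 bases of one, against 14.7% of other peaks. Replicate numbers did not pair libraries. The correlation of deviations of same-numbered IFNα and unstimulated libraries was -0.013 to 0.018, within the range over all pairs of -0.041 to 0.041. Alternatives were other scalings, a GC correction, other pseudocounts and filters, quality weights, fewer libraries in the fit, the replicate block, a stricter threshold and leaving out each library. A fit without the trend was added after the data were seen.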

Additional observations from a re-analysis of the deposited data

Results flagged for a closer look

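Of 126 groups of 4 libraries examined, 1 held a library far from its neighbours. Coverage in peaks was 823 Mb in IFNα replicate 2 and 325 to 390 Mb in the other 3 IFNα libraries. Chance alone would mark about 1 in 20 groups. Levels are given per Mb of each library's total. At the promoter of BST2 this library held 22.9 coverage per Mb and the other 3 held 21.2, 24.3 and 19.9.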

How the results depend on the processing

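The 20 peaks named by size kept their call and direction under all 20 alternatives, whereas the counts of calls moved. With library totals the balance turned, with 1590 peaks raised and 1628 lowered. The differences of single promoters between IFNα and IFNγ were not recomputed under the alternatives. Without the trend of spread on mean level (added after the data were seen) 568 peaks were raised and 363 lowered, and 329 were higher and 1981 lower with IFNα than with IFNγ. At an adjusted p under 0.01 these counts were 998, 603, 502 and 1834. Quality weights gave 2122 peaks higher than with IFNγ, a pseudocount of 0.1 gave 1994 lower, and a fit of only the libraries compared gave 5454 lower. Leaving out each library in turn gave 1318 to 1815 raised and 850 to 1154 lowered peaks (lowest without IFNα replicate 1 and unstimulated replicate 3), and 709 to 1079 higher and 2325 to 2923 lower than with IFNγ (lowest without IFNα replicate 4 and IFNγ replicate 3). Further counts over 1.5 times from those reported were 889 lowered without unstimulated replicate 2, 741 higher without IFNα replicate 1, 721 higher without IFNγ replicate 3 and 2330 lower without IFNγ replicate 2. Loess offsets gave a raised share of 53.2%. With the replicate block 2156 peaks were raised and 1395 lowered, and 1249 and 3646 differed from IFNγ; the replicate numbers name the libraries and do not pair them. Taking any peak that the table names for a gene, a raised peak was found for 5 of 16 signalling, 8 of 18 class I, 2 of 11 class II, 7 of 14 chemokine and checkpoint and 7 of 18 matrix genes, against 7.78% of protein-coding genes. Peaks near 3 reads limit what can be seen at low levels, so a small change could be missed at promoters such as those of HLA-DRA and CD74. No change with IFNα was called at these 2. Large rises from such levels were called, as at the promoters of CXCL10 (mean 0.974 to 10.8) and IFI44L (0.595 to 4.62).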

Other observations

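Further promoters outside the lists were raised. CFB, complement factor B, went from a mean of 10.4 to 25.4 coverage per Mb (1.26 ± 0.15, limma adjusted p = 1.45e-10), and SERPING1, the inhibitor of complement C1, rose by 1.22. TYMP, thymidine phosphorylase, rose by 1.23. Among transcription factors ETV7 went from 2.54 to 9.26 (1.67) and BATF2 rose by 1.11 (adjusted p = 2.49e-06). APOL3 rose by 1.09 but was lower than with IFNγ (-1.20). FBXO39, CCDC194 and GJD3 had the largest changes among promoters off the lists (2.35, 2.07 and 1.89), of which CCDC194 lies beside BST2. Among promoters that fell were PXDNL (-1.09), PDE4D (-1.08), FRZB (-0.83), which encodes a secreted Wnt antagonist, RSPO2 (-0.75), which encodes a Wnt agonist, and LAMA2 (-0.59), a laminin chain. Adjusted p was 0.0495 at APOL3, 0.0435 at RSPO2, 0.0265 at FRZB, 0.0218 at LAMA2 and 0.017 at TYMP. CCDC194 started from a mean of 0.444, near the level of 3 reads. Whether the calls at these single promoters hold when a library is left out was not examined. The genes were chosen for naming after their values were seen.

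Other loci of neighbouring raised peaks held 6 peaks at the histone gene H4C8, 5 at the histone genes H2BC21 and H2AC21, and 5 at ACO1 beside RIGI, with changes of 1.42 to 2.52 at ACO1. IRF1 held 6, of which 4 were lower with IFNα than with IFNγ, and HLA-E 4, of which 3 were lower. Neighbouring lowered peaks numbered 4 at ACTG1 (-0.61 to -0.46), 3 near ACTB (-0.48 to -0.40), 3 at FTH1 (-1.05 to -0.73), 3 at MALAT1 (-0.99 to -0.53), 4 at ZFP36L1 (-0.96 to -0.75) and 3 at FOS (-1.25 to -0.71). These loci are defined by their called peaks and do not give the share of a gene's peaks that moved. The promoter peaks of ACTB (means of 19.9 and 20.2) and FOS (18.3 and 15.9) were not called. FTH1 and MALAT1 were also lower than with IFNγ at 3 and 2 of their peaks, counts tilted by the choice of peaks lowered with IFNα.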
